A study of Homo sapiens with 2 samples.

Results

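The genes described here are 10 genes listed as imprinted, read in D407 cells, out of 37364 genes listed in the deposited table. They are H19, IGF2, IGF2R, CDKN1C, KCNQ1OT1, MEG3, DLK1, PEG3, PEG10 and SNRPN, each matched by its symbol. The members were chosen by name with their levels in these libraries known, so the levels are a description. D407 is a human cell line labelled as retinal pigment epithelium (RPE), the cell layer that supports the photoreceptors. It was grown in medium with fetal bovine serum and antibiotics. RNA was sequenced from 1 control library and 1 library of cells treated with clusterin, a secreted chaperone protein. The dose and duration of the treatment are not given in the sources used here, and no genetic change is labelled in either library. With 1 library per group no difference was tested. Every interval below covers counting error only, so a difference between the libraries cannot be told apart from one between any pair of cultures.

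An imprinted gene is transcribed mainly or only from the copy inherited from the mother, or only from that inherited from the father. The choice is held by DNA methylation at a control region set in the germ line. H19, a long noncoding RNA, and IGF2, a fetal growth factor, share enhancers on chromosome 11: CTCF binds the unmethylated maternal control region and H19 is transcribed there, while IGF2 is transcribed from the paternal copy. H19 also contains the hairpin of miR-675. These libraries measure RNA levels and do not show from which parental copy an RNA came. Whether each gene called imprinted here is so in these cells was therefore not tested.

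The sequence of the miR-675 hairpin is shown because its locus, MIR675, lies inside H19 and was among the highest levels in the table. In the hairpin, capitals mark the mature arms. In the mature arms, capitals mark the seed, bases 2 to 8, with which a microRNA recognises targets. All are from RefSeq on GRCh38.p14, minus strand, with the hairpin at chr11:1996759-1996831.
MIR675 hairpin: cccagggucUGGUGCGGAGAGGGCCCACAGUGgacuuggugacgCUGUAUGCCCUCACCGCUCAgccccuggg
hsa-miR-675-5p: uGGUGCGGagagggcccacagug
hsa-miR-675-3p: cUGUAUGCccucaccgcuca
In RefSeq, 1 other microRNA gene, MIR4466, shares the seed of the 5p arm, and it was listed at 0 in both libraries. The 3p seed was shared with none. The libraries held fragments of long RNA, so reads on the hairpin count the H19 transcript or its precursor and not the mature microRNA.

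The levels fell into 3 kinds. H19 stood far above every other member, CDKN1C, PEG10, SNRPN and IGF2R lay between 5.99 and 24.7 RPKM, and the remaining 5 were at or near 0. RPKM is the number of reads per kilobase of transcript, scaled by the total reads of the library, here 38236989 for the control and 33177095 for clusterin. A gene whose mean over both libraries reaches 1 RPKM is called measured, which holds for 5 of the 10 members and 13244 genes in all. IGF2, MEG3, DLK1 and PEG3 were listed at 0 in both libraries. RPS18, which codes for part of the ribosome in all cells, was listed at 0 too, and among genes with recovered reads none had fewer than 6 over both libraries. A listing at 0 therefore does not show that a transcript was absent.

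**Figure D1:**
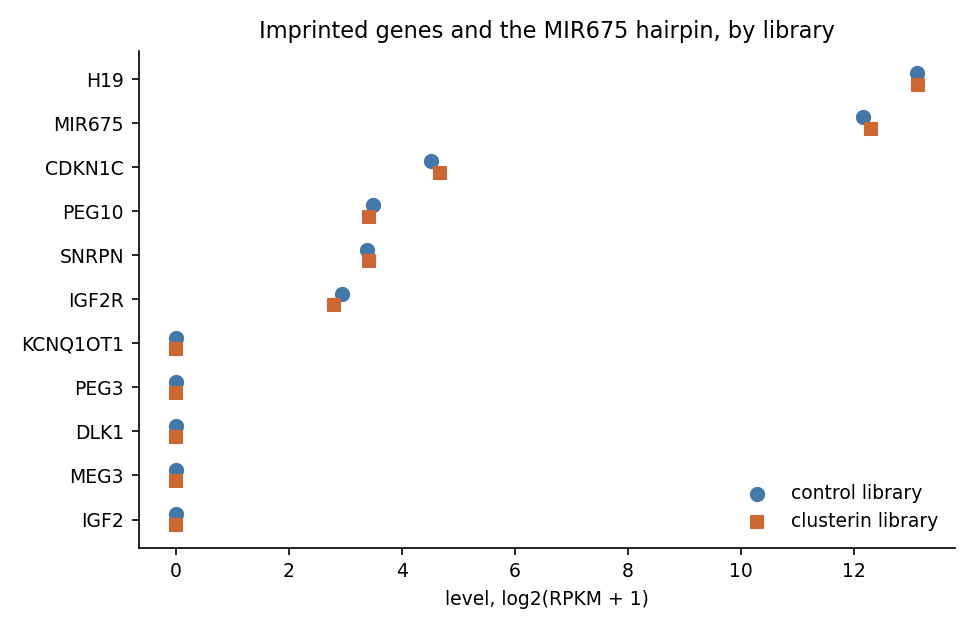
Levels of the 10 imprinted genes and of the MIR675 hairpin as log2(RPKM + 1), with circles for the control library and squares for the clusterin library (1 library each). H19 and MIR675 lie far to the right, CDKN1C, PEG10, SNRPN and IGF2R lie in the middle, and the others lie at or near 0.

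H19 (chromosome 11, 1995176 to 1997835, minus strand, GRCh38 positions as for all members) had a level of 8859 RPKM in the control and 8976 RPKM in the clusterin library. It ranked 7 among all entries in both libraries and 3 among those listed by symbol in the control. Its level was 3.99 times that of the highest protein-coding gene listed by symbol, the translation elongation factor EEF1A1, in the control. With clusterin it was 4.27 times. Entries under an Ensembl identifier were not searched for protein-coding genes. Each kilobase of the H19 transcript held 338727 control and 297794 clusterin reads. If all of its 2660 bases in the table were transcript, H19 would hold 2.36% of the control and 2.39% of the clusterin reads by which the authors scaled, which are upper limits. A second entry for H19 under its Ensembl identifier stood at 7594 and 7692 RPKM. Its ratio between the libraries, 1.01, was that of the entry by symbol at this rounding.

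The clusterin to control ratio of H19 was 1.01. The reads of 1 kb of transcript gave a 95% counting interval of 1.008 to 1.02. The log2 difference, log2((clusterin RPKM + 1)/(control RPKM + 1)), was 0.02, at percentile 75.5 of measured genes, whose median was -0.06. Among 497 genes with at least 10000 recovered reads, ratios ran from 0.904 at the 5th to 1.04 at the 95th percentile, with a median of 0.960. H19 lay inside that range. The search for reads fails where the deposited p-value is very small, so the range lacks deep genes that differ most, small RNA genes apart. H19 itself is not among the 497, and the range may be narrower than that of all deep genes. In the authors' deposited table H19 had a q of 4.47e-13, from a p-value that takes account of read sampling error alone. At this depth a difference of about 1% reaches such a q.

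MIR675 stood at 4564 RPKM in the control and 5047 RPKM in the clusterin library, from 12739 and 12224 reads on its 73 bases. That is 0.515 times the level of H19 in the control and 0.562 times in the clusterin library. The ratio of MIR675 was 1.11 (1.08 to 1.13), above that of H19, and the counting intervals of the pair did not overlap. The hairpin lies inside H19, so the pair are not separate measurements, and the H19 interval uses the reads of 1 kb. Whether hairpin and host differ was not tested. MIR675 lay above the 95th percentile of the deeply read genes with recovered reads, which lack longer genes with very small deposited p-values. Among 64 microRNA, small nucleolar and other small RNA genes with at least 1000 reads, ratios ran from 0.841 to 1.46 with a median of 1.03, and 17 lay above MIR675. The genes with a symbol whose levels were nearest to those of H19 over the 2 libraries were RNA45S5, a ribosomal RNA precursor, at 6101 and 6521 RPKM, MIR675, and EEF1A1 at 2222 and 2100 RPKM. Distances in log2(RPKM + 1) were 0.708, 1.27 and 2.89.

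IGF2 (chromosome 11, 2129112 to 2149603, minus strand) was listed at 0 beside H19 in both libraries. So were the overlapping INS-IGF2, the antisense IGF2-AS, the intronic microRNA gene MIR483, the insulin gene INS and TH, tyrosine hydroxylase. Of 33 entries by symbol starting within 500 kb of the start of H19, 20 (60.6%) were listed at 0, against 33.8% of all 23814 entries by symbol. On the other side of H19, MRPL23, a mitochondrial ribosomal protein gene, stood at 70.2 and 71.8 RPKM (ratio 1.02, 0.958 to 1.09). Further along, CTSD, the lysosomal protease cathepsin D, stood at 94.4 and 96.6 RPKM (1.02, 0.989 to 1.06). MRPL23-AS1, an antisense RNA, had 154 and 121 reads, or 2.12 and 1.92 RPKM. The span given for MRPL23 covers H19 on the opposite strand, and whether the counting used strand is not given in the sources used here.

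**Figure D2:**
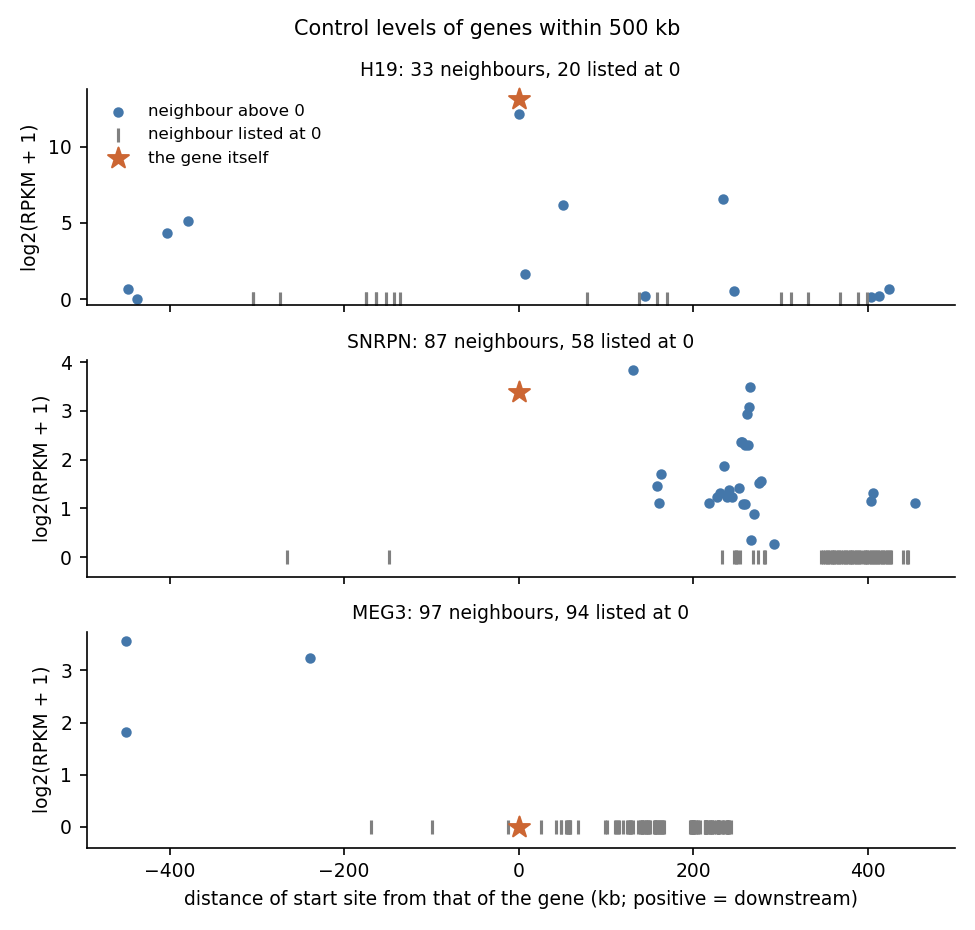
Control level, as log2(RPKM + 1), of each gene listed by symbol against the distance of its start site in kilobases from that of H19, SNRPN or MEG3. The star is the gene itself and grey ticks are neighbours listed at 0 in both libraries, which are 20 of 33 around H19, 58 of 87 around SNRPN and 94 of 97 around MEG3.

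CDKN1C (chromosome 11, 2883218 to 2885816, minus strand), a maternally expressed inhibitor of cyclin-dependent kinases also called p57, stood at 22.0 RPKM in the control and 24.7 RPKM in the clusterin library. These levels came from 1624 and 1581 reads on a transcript of 1930 bases. The ratio was 1.12 (1.05 to 1.20) and the log2 difference 0.16, at percentile 94.3 of measured genes. In the authors' deposited table its q was 0.0151. CDKN1C thus lay on the high side, though within the central range of measured genes, whose 95th percentile was 0.17.

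KCNQ1OT1 (chromosome 11, 2608328 to 2699998, minus strand) is the paternally expressed noncoding RNA that silences CDKN1C and its neighbours on the same copy. It stood at 0.00514 RPKM in the control and 0.00986 RPKM in the clusterin library, from 18 and 30 reads over 91671 bases. Its ratio was 1.92 (1.04 to 3.66), the widest interval among the members. In the authors' deposited table its q was 0.133. The gene lies inside an intron of KCNQ1 on the opposite strand. KCNQ1 stood at 0.608 and 0.812 RPKM (ratio 1.34, 0.983 to 1.82), from 82 and 95 reads on a spliced length of 3525 bases. Without stated strand, reads of unspliced KCNQ1 RNA in that intron cannot be told apart from those of KCNQ1OT1.

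Other genes of that domain did not share 1 direction. TSSC4 stood at 19.6 and 22.0 RPKM (ratio 1.12, 1.03 to 1.22) and the placental growth regulator PHLDA2 at 11.7 and 11.7 RPKM (1.004, 0.869 to 1.16). The lipid transfer gene OSBPL5 stood at 44.3 and 45.3 RPKM (1.02, 0.989 to 1.06). Below 1 lay NAP1L4, a histone chaperone, at 43.0 and 37.4 RPKM (0.869, 0.829 to 0.910), and CARS, cysteinyl-tRNA synthetase, at 6.97 and 5.63 RPKM (0.808, 0.722 to 0.904). CD81 stood at 34.0 and 32.3 RPKM (0.952, 0.891 to 1.02).

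IGF2R (chromosome 6, 159969099 to 160106551, plus strand) encodes the receptor that takes IGF2 to the lysosome and carries mannose 6-phosphate enzymes there. It stood at 6.66 RPKM in the control and 5.99 RPKM in the clusterin library, from 2315 and 1808 reads on 9091 bases. The ratio was 0.900 (0.846 to 0.958) and the log2 difference -0.13, at percentile 24.9 of measured genes. In the authors' deposited table its q was 0.0115. The median ratio of measured genes was 0.953, and 70.2% of them lay below 0 on the log2 scale, so IGF2R lay on the side of most genes. AIRN, a noncoding RNA antisense to IGF2R, had 18 and 19 reads, or 0.108 and 0.131 RPKM (ratio 1.22, 0.604 to 2.46). SLC22A3, an organic cation transporter gene of the same domain, stood at 1.72 and 1.75 RPKM (1.02, 0.832 to 1.24). The nearest genes to IGF2R in level over the 2 libraries were PTPRA, at 6.69 and 6.03 RPKM, the microRNA gene MIR4664, at 6.63 and 5.94, and MTF2, at 6.66 and 5.94.

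PEG10 (chromosome 7, 94656325 to 94669695, plus strand) is a paternally expressed gene derived from a retrotransposon and needed for the placenta. It stood at 10.3 RPKM in the control and 9.67 RPKM in the clusterin library, from 2614 and 2126 reads on 6628 bases. Its ratio of 0.937 (0.885 to 0.993) lay close to the median of measured genes, and its log2 difference of -0.08 was at percentile 40.5. SGCE, epsilon-sarcoglycan, which starts beside PEG10 on the other strand and is also paternally expressed, stood at 5.38 and 4.76 RPKM (0.886, 0.757 to 1.04). Of the 5 measured genes listed for this domain all lay below 0 on the log2 scale, as did 70.2% of all measured genes. Of these 5, 2 lay above the median of all measured genes. The 5 included CASD1 (2.31 and 1.83 RPKM, ratio 0.790, 0.666 to 0.935), PDK4, a pyruvate dehydrogenase kinase (18.3 and 16.4 RPKM, 0.894, 0.843 to 0.948), and PON2, a paraoxonase (90.0 and 88.3 RPKM, 0.981, 0.944 to 1.02).

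SNRPN (chromosome 15, 24823647 to 24978582, plus strand) encodes a core protein of the spliceosome and is paternally expressed in the Prader-Willi region. It stood at 9.51 RPKM in the control and 9.67 RPKM in the clusterin library, from 724 and 639 reads on 1992 bases. Its ratio was 1.02 (0.913 to 1.13). SNURF, read from the same transcript, stood at 13.4 and 13.6 RPKM from 730 and 644 reads. The pair thus differed by only a few reads in either library, and their levels are not separate measurements. The level of SNRPN was 0.0739 times that of its paralog SNRPB in the control, and reads shared by these related genes cannot be told apart here.

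Among the other genes of the Prader-Willi region, the paternally expressed MKRN3 stood at 3.64 and 3.63 RPKM (ratio 0.997, 0.857 to 1.16). UBE3A, a ubiquitin ligase that is maternally expressed in neurons, stood at 10.4 and 10.0 RPKM (0.965, 0.905 to 1.03). MAGEL2 and NDN, also paternally expressed, were listed at 0. The small nucleolar RNA copies downstream, which are processed from introns, were picked with their values in view. Of 29 SNORD116 copies 20 were above 0, and reads were recovered for 17 of them, in all 199 control and 148 clusterin reads. All 47 SNORD115 copies were listed at 0. The copies of each family are near-identical, so their split is uncertain. Some had equal levels in both libraries, such as SNORD116-17 and SNORD116-19 at 3.90 and 4.81 RPKM. The same reads may therefore be counted at more than 1 copy, and the sums may be too high.

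MEG3 (chromosome 14, 100826108 to 100861026, plus strand), a maternally expressed long noncoding RNA, and DLK1 (chromosome 14, 100726865 to 100735130, plus strand), a paternally expressed Notch family ligand, were both listed at 0. So was the entry of MEG3 under its Ensembl identifier. Within 500 kb of the start of MEG3, 94 of 97 entries by symbol were listed at 0 (96.9%). These included all 89 small RNA entries there, microRNA hairpins and small nucleolar RNAs. Of all 1730 small RNA entries, these 89 included, 69.1% were at 0. All 38 entries of SNORD113 and SNORD114, which are made from this domain, were at 0, against 41.2% of the 262 SNORD entries in the table. The 262 include these 38 and the 47 SNORD115 copies at 0, so that share is not an independent background. Among the other genes of the domain, RTL1, MEG8 and MEG9 were at 0, and DIO3, a thyroid hormone deiodinase, stood at 0.274 and 0.358 RPKM from 22 and 25 reads. Outside the imprinted stretch, BEGAIN stood at 8.39 and 8.50 RPKM and WDR25 at 2.53 and 2.69 RPKM.

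PEG3 (chromosome 19, 56810077 to 56840726, minus strand), a paternally expressed zinc finger gene, was listed at 0 with its neighbours ZIM2, MIMT1, USP29, ZIM3 and PEG3-AS1. Of 23 entries within 500 kb, 18 (78.3%) were at 0. ZNF264, a zinc finger gene of the same cluster, was the measured gene on that list, at 1.79 and 1.52 RPKM (ratio 0.850, 0.764 to 0.944).

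Promoter sequences from RefSeq (GRCh38.p14, 250 bases before to 50 after a start) were found for 4 of the 10 members. They are H19, IGF2R, SNRPN and MEG3, of which MEG3 was listed at 0 and the others were measured. RefSeq gives 4 windows for SNRPN and 3 for MEG3. Those shown are the SNRPN window nearest to the start of SNURF and the MEG3 window at the start in the deposited table. Capitals mark each CG, the dinucleotide at which imprints are methylated. The H19 window is chr11:2001217-2001516 on the minus strand, and the start it marks is 3431 bases upstream of that of H19 in the deposited table. On the plus strand are chr6:159968832-159969131 for IGF2R, chr15:24954737-24955036 for SNRPN and chr14:100825858-100826157 for MEG3. The start marked for SNRPN is 64 bases from that of SNURF and 131340 bases from that of SNRPN in the deposited table.
H19: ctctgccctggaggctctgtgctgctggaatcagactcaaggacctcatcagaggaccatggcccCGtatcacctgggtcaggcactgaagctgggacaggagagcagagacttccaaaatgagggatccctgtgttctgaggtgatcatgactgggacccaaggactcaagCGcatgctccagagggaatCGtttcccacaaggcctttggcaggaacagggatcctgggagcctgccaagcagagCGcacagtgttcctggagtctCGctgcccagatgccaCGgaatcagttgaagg
IGF2R: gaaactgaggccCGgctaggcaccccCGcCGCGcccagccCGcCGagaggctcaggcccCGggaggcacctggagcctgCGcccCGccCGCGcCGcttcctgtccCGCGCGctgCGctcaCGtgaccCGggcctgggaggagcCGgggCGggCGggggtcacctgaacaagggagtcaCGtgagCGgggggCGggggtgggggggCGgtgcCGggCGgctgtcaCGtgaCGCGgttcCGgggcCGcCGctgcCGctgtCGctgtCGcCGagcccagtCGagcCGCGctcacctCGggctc
SNRPN: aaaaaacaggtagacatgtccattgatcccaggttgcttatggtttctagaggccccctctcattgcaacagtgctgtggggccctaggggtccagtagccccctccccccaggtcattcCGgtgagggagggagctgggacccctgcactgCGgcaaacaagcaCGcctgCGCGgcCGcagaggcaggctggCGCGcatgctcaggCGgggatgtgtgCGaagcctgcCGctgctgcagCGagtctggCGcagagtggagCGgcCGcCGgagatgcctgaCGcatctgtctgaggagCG
MEG3: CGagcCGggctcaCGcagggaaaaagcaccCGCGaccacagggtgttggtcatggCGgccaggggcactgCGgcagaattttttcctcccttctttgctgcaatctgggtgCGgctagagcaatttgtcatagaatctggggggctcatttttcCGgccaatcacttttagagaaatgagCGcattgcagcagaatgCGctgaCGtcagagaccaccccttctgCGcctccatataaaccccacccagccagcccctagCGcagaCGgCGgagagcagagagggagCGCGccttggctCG
The IGF2R window held 41 CG, more than 93.3% of 35097 promoter windows, whose median was 14. The H19 window held 6, more than 33.7% of windows. The SNRPN window shown held 18, more than 55.5% of windows, while the other 3 SNRPN windows held 2, 7 and 11. The 3 MEG3 windows held 17 to 19, and the one shown was above 57.1% of windows. TATAAA, searched on both strands, was in the MEG3 window and in none of the other 3 shown, and 11.5% of all windows hold it. CACGTG was found 3 times in the IGF2R window and in none of the other 3 shown, and 7.25% of all windows hold it. Methylation was not measured here.

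No member differed by at least 2-fold on log2(RPKM + 1), among the 5 measured, and 0.219% of all measured genes did. Because 1 RPKM is added, a ratio of exactly 2 falls short of this limit. Of 5 members with recovered reads, CDKN1C and KCNQ1OT1 had intervals above 1 and IGF2R and PEG10 below 1. Over all 20152 genes with recovered reads these shares were 3.78% above and 19.3% below. Among measured genes alone they were 4.3% above and 25.6% below. These shares leave out genes with very small deposited p-values, whose reads could not be recovered, small RNA genes apart. In the authors' deposited table, of the 6 members above 0, 2 had a q below 0.05 with a higher level in the clusterin library, H19 and CDKN1C, and 1 with a lower level, IGF2R. In that table from the authors, 1.63% of genes above 0 had such a q with a higher level in the clusterin library and 10.4% with a lower one. Over the 5 measured members the median log2 difference was 0.02, with 3 above and 2 below 0, beside -0.06 over all measured genes. With the median log2 ratio of measured genes set to 0, no member had an interval below 1: that of IGF2R became 0.888 to 1.005 and that of PEG10 0.929 to 1.04. CDKN1C (1.10 to 1.26) and KCNQ1OT1 (1.09 to 3.84) stayed above 1. Over all genes with recovered reads the shares were then 8.84% above and 8.45% below. The ratios became 1.06 for H19, 1.18 for CDKN1C, 2.02 for KCNQ1OT1, 1.07 for SNRPN, 0.984 for PEG10 and 0.945 for IGF2R.

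**Figure D3:**
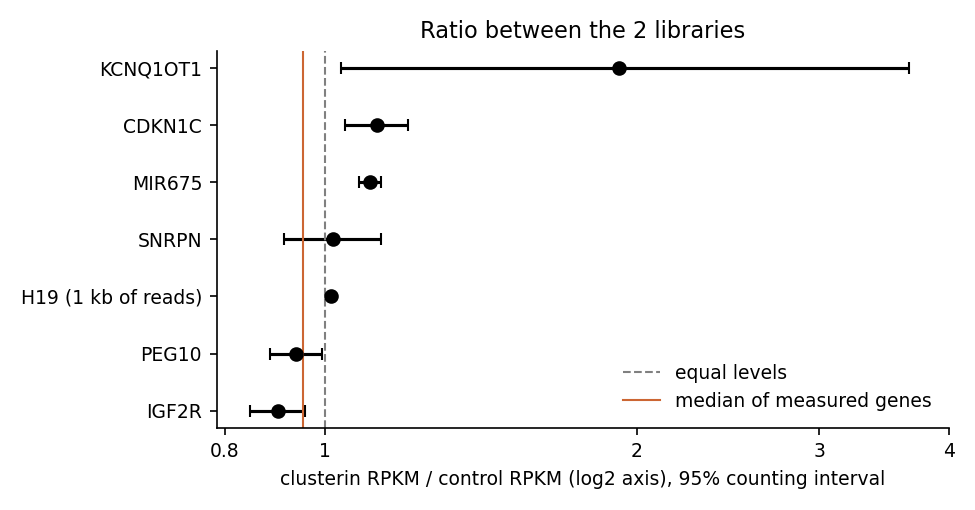
Ratio of clusterin to control RPKM on a log2 axis for each member with reads and for MIR675, with 95% exact counting intervals; that of H19 uses the reads of 1 kb. The dashed line marks equal levels and the solid line the median ratio of measured genes, 0.953, and the points run from 0.900 for IGF2R to 1.92 for KCNQ1OT1.

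Other genes listed as imprinted were on the side of most genes. Of 30 such genes listed, 15 were measured, none passed 2-fold, 12 lay below 0 and 3 above, and the median log2 difference was -0.08. Intervals lay above 1 for 2 and below 1 for 5 of these 15, beside 4.3% and 25.6% of measured genes, and under the rescaling by the median log2 ratio 2 lay below 1. PLAGL1, a paternally expressed zinc finger factor, was among the lowest at 4.04 and 3.18 RPKM (ratio 0.787, 0.689 to 0.898). NAP1L5, also paternally expressed, was the highest at 1.79 and 2.39 RPKM (1.33, 1.05 to 1.69), from 134 and 155 reads. GNAS, the stimulatory G protein alpha subunit, stood at 45.6 and 43.2 RPKM (0.947, 0.919 to 0.975). BLCAP stood at 18.4 and 17.6 RPKM (0.956, 0.891 to 1.02) and HM13, signal peptide peptidase, at 11.2 and 12.3 RPKM (1.11, 1.03 to 1.19). MEST, a paternally expressed hydrolase gene, stood at 6.43 and 6.03 RPKM (0.939, 0.842 to 1.05) and GRB10, which binds insulin and IGF receptors, at 5.88 and 5.19 RPKM (0.882, 0.808 to 0.962).

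IGF2 acts through the receptors IGF1R and INSR, which start growth signalling. IGF1 was listed at 0 like IGF2. IGF1R stood at 1.59 and 1.55 RPKM (ratio 0.977, 0.873 to 1.09) and INSR at 2.95 and 2.74 RPKM (0.930, 0.848 to 1.02). Of the 6 measured genes of ligands, receptors and adaptors, 5 lay below 0, beside 70.2% of all measured genes. The exception, IRS2, an adaptor of both receptors, stood at 7.50 and 8.68 RPKM (1.16, 1.09 to 1.23). The adaptor SHC1 stood at 26.1 and 23.6 RPKM (0.906, 0.863 to 0.952) and GRB2 at 20.5 and 19.5 RPKM (0.954, 0.900 to 1.01).

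IGF binding proteins hold IGFs outside the cell. Of 6 measured genes of these proteins and their proteases, 3 lay above 0 and 3 below, and all 6 above the median of measured genes. IGFBP3 stood at 72.9 and 84.5 RPKM, a log2 difference of 0.21. In the authors' deposited table its q was listed as 0, from read sampling error alone. It has no interval because its p-value was too small for the search for whole reads. IGFBP7 stood at 41.2 and 43.9 RPKM (ratio 1.07, 1.002 to 1.14). The protease HTRA1 stood at 28.0 and 27.1 RPKM (0.969, 0.911 to 1.03).

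Genes of proteins that bind IGF2 mRNA or H19 lay mostly below 0, 7 of 8 measured, with a median log2 difference of -0.12. Of all measured genes 70.2% lay below 0. Intervals lay below 1 for 5 of 7 with recovered reads and above 1 for 0, beside 25.6% below and 4.3% above among measured genes. With the median log2 ratio set to 0 these counts were 3 below and 1 above. Among the genes of IGF2 mRNA binding proteins, IGF2BP1 stood at 4.03 and 3.44 RPKM (ratio 0.854, 0.786 to 0.928). IGF2BP2 stood at 4.05 and 3.31 RPKM (0.818, 0.718 to 0.931) and IGF2BP3 at 14.5 and 12.8 RPKM (0.882, 0.828 to 0.938). The splicing regulator KHSRP stood at 15.2 and 14.3 RPKM (0.941, 0.879 to 1.01), EZH2, a histone methyltransferase, at 14.4 and 13.3 RPKM (0.922, 0.857 to 0.991), and HNRNPU at 81.7 and 78.9 RPKM.

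Genes listed for imprint maintenance had a median log2 difference of -0.10, with 9 of 13 measured below 0, a share near the 70.2% of all measured genes. The list also includes genes that set or remove DNA methylation, DNMT3A, TET2 and TET3. Intervals lay below 1 for 7 and above 1 for 1, beside 25.6% and 4.3% of measured genes, and for 4 and 2 with the median log2 ratio set to 0. CTCF, which binds the H19 control region, stood at 9.89 and 8.48 RPKM (ratio 0.858, 0.793 to 0.928). ZNF445, which guards methylated imprints, stood at 2.41 and 1.86 RPKM (0.771, 0.696 to 0.854), and its partner TRIM28 at 55.7 and 56.3 RPKM (1.01, 0.976 to 1.05). UHRF1, which brings the methyltransferase DNMT1 to replicated DNA, stood at 29.1 and 31.1 RPKM (1.07, 1.03 to 1.12), and DNMT1 at 22.5 and 21.2 RPKM (0.943, 0.903 to 0.985). The cohesin subunit RAD21 stood at 43.4 and 38.8 RPKM (0.893, 0.860 to 0.928). ZFP57, a zinc finger factor of early imprints, was listed at 0.

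**Figure D4:**
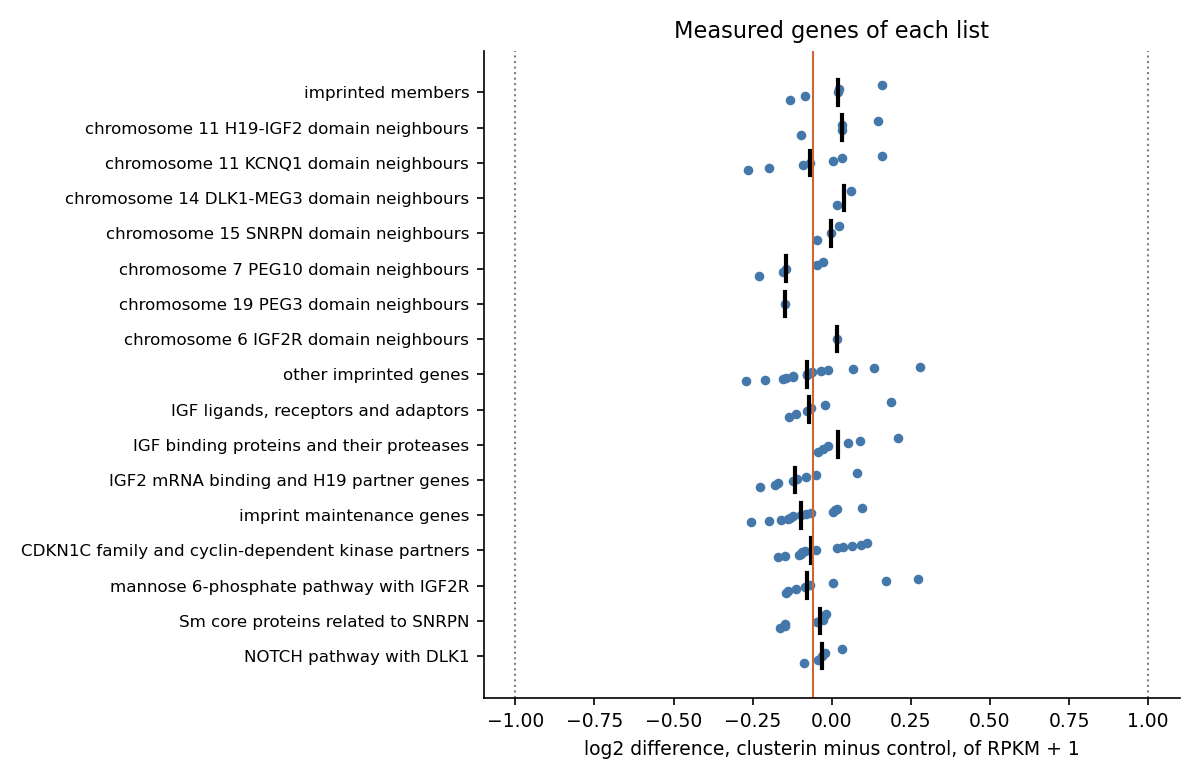
Log2 difference of RPKM + 1, clusterin minus control, for each measured gene (points) of the 10 members and of 16 related lists, with the median of each list as a black bar. The solid line is the median of all measured genes, -0.06, the dotted lines mark 2-fold, and no point reaches them.

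Around the other members the lists gave the following. Among the kinase inhibitors, cyclin-dependent kinases and cyclins listed with CDKN1C, 5 of 12 measured genes lay above 0 and 7 below, with a median of -0.07. Over all measured genes 70.2% lay below 0, with a median of -0.06. The inhibitor CDKN2A stood at 48.6 and 52.6 RPKM (ratio 1.08, 1.03 to 1.13), CDKN1B, the closest relative named p27, at 33.5 and 30.1 RPKM (0.899, 0.852 to 0.949), and CDKN2C at 26.7 and 23.6 RPKM (0.885, 0.834 to 0.939). CDKN1A, another relative of CDKN1C, stood at 22.7 and 23.8 RPKM (1.05, 0.984 to 1.12). The kinases CDK4 and CDK2 stood at 46.7 and 43.7 RPKM and at 45.4 and 42.5 RPKM.

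In the mannose 6-phosphate pathway, which uses IGF2R, 5 of 8 genes lay below 0, beside 70.2% of all measured genes. The smaller receptor M6PR stood at 35.0 and 31.6 RPKM (ratio 0.902, 0.857 to 0.949) beside 0.900 for IGF2R. NAGPA, which uncovers the mannose 6-phosphate tag, stood at 5.02 and 6.28 RPKM (1.25, 1.09 to 1.43), and GGA3, a sorting adaptor, at 2.43 and 2.86 RPKM (1.18, 1.02 to 1.36). GNPTG stood at 14.9 and 14.2 RPKM and AP1M1 at 12.3 and 11.5 RPKM.

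All 8 genes listed as Sm core genes related to SNRPN lay below 0, as did 70.2% of measured genes. The list includes SNRPB2, which is not an Sm core gene, at 13.8 and 12.4 RPKM (ratio 0.896, 0.810 to 0.990). The median of the 8, -0.04, was above the -0.06 of all measured genes, and 5 of the 8 lay above that -0.06. The interval of SNRPN, 0.913 to 1.13, overlaps theirs. SNRPB stood at 129 and 126 RPKM (ratio 0.982, 0.945 to 1.02), SNRPD2 at 119 and 115 RPKM, SNRPG at 69.8 and 68.9 RPKM, SNRPD1 at 28.1 and 25.2 RPKM (0.899, 0.836 to 0.966) and SNRPE at 24.8 and 22.1 RPKM (0.889, 0.822 to 0.962). Of the 13 Notch pathway genes listed with DLK1, 5 were measured and 4 of these lay below 0, beside 70.2% of all measured genes. NOTCH2 stood at 9.44 and 9.13 RPKM, and the Notch targets HES1 and HEY1 at 6.48 and 6.37 RPKM and at 5.14 and 4.77 RPKM.

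The labelled cell type was checked against markers. Of 15 RPE markers 8 were listed at 0, among them RPE65, RLBP1 and TTR, and 4 were measured. The measured ones were BEST1, a chloride channel (2.14 and 1.73 RPKM), the pigment cell factor MITF (9.70 and 9.88 RPKM), the retinol receptor STRA6 (7.83 and 7.98 RPKM) and the retinol dehydrogenase RDH11 (13.2 and 11.9 RPKM). Markers of simple epithelia were uneven. The keratins KRT7 (407 and 420 RPKM), KRT18, KRT8 and KRT19 were high, the junction gene CLDN4 stood at 1.55 and 1.39 RPKM, CDH1 (E-cadherin) at 0.0163 and 0.0250, and EPCAM and ESRP1 were listed at 0. Because H19 and PEG10 are also known from placenta and fetal liver, markers of those tissues were read too. Of 9 trophoblast markers, 5 were at 0, CGB, GCM1, PSG1, CYP19A1 and GATA3, and 1 was measured, the hormone subunit CGA. Their summed level was 3.51 RPKM in the control and 3.04 RPKM in the clusterin library. Of 8 hepatocyte markers 6 were at 0, ALB and AFP included, and none was measured. None of the 9 leukocyte and endothelial or the 8 neuronal and photoreceptor markers was measured. Of 8 fibroblast markers 3 were, and their summed level, 74.1 RPKM in the control and 72.3 RPKM with clusterin, was above the 34.9 and 33.4 RPKM of the RPE markers. It came mostly from the matrix proteoglycans LUM, at 46.2 and 45.7 RPKM, and DCN, at 25.9 and 24.9 RPKM. The other fibroblast markers were low. COL1A1 stood at 1.15 and 0.920 RPKM, PDGFRB at 0.728 and 0.649 RPKM, COL3A1 at 0.0667 and 0.110 RPKM and COL1A2 at 0.0338 and 0.0223 RPKM. THY1 and PDGFRA were listed at 0. The part of other cell types in the members' levels was not tested.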

How the data were processed

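RNA of 1 control and 1 clusterin-treated D407 culture was enriched on oligo(dT) beads, per the labels' protocols. Bowtie, TopHat and Cuffdiff with build hg19 are named in the submitters' processing notes, without versions. Entries by symbol carry GRCh38 positions: 92.7% of 21010 start within 2000 bp of RefSeq. The authors deposited RPKM values, reads per kilobase scaled by library total, though the header names no unit. The unit follows from the numbers themselves, since for 490 of 532 small RNA genes, level times length gave whole reads within 0.02 at totals of 38236989 (control) and 33177095 (clusterin). The deposited p-values and q-values come with a log2 ratio per the file headers. For 473 of 485 of those genes the p-value equalled the Audic-Claverie p of the reads within 0.1%. Reads of other genes were searched for as the whole numbers that give both levels and that p, and were recovered for 20152 of 20642 genes above 0. They may be single reads or pairs. Where the p-value is very small the search fails, so genes that differ most for their depth have no interval, small RNA genes apart. Differences are log2 with a pseudocount of 1 RPKM. Intervals of ratios are exact Clopper-Pearson at 95%; reads without molecular identifiers make them counting error only. No test was made with 1 library per group. Named genes are the members, and in each related list the 3 highest and the 2 furthest from 0, plus neighbours, partners and markers picked for their role with values known. IGF2R and H19 also have the 3 nearest genes in level. Members and lists were chosen with earlier results of these data known. Python 3.11.15, scipy 1.17.1 and pandas 2.3.3 were used.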

Additional observations from a re-analysis of the deposited data

How the results depend on the processing

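Other pseudocounts (0.1 and 5 RPKM), a mean of at least 5 RPKM, no filter, a 1.5-fold limit and setting the median log2 ratio of measured genes to 0 were tried. The count of members past 2-fold, and that of related genes past it, stayed at 0 in each of them, 1.5-fold included. With no filter the 1 RPKM pseudocount still keeps genes near 0 from passing, so that setting could not raise the count through them. KCNQ1OT1, with a ratio of 1.92, stayed below the limit for this reason. So did TRPM5 of the related lists, with a ratio of 4.32 (1.38 to 17.9) from 4 and 15 reads. The median log2 difference of the measured members, 0.02 as reported, became 0.09 with the median log2 ratio set to 0 and 0.01 with no filter, which adds KCNQ1OT1. The log2 difference of H19, 0.02 as reported, became 0.09 with the median log2 ratio set to 0, a shift that exceeds its counting interval. The 15 values of single members under the pseudocounts and the rescaling moved by less than their counting intervals. Chosen after seeing the data, the same rescaling of the intervals left 2 members above 1 and took those below 1 from 2 to 0, IGF2R and PEG10. No paired analysis was possible because each group has 1 library, and no replicate could be left out. Depth limits KCNQ1OT1 most, with 18 and 30 reads. The reads of H19 could not be counted exactly, because its deposited p-value was too small for the search for whole reads. Its transcript length, which would also give them, is not known.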
